A study of Mus musculus with 6 samples.

Results

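The genes described here are 10 markers of undifferentiated mouse stem cells: Dppa2, Dppa3, Dppa4, Dppa5a, Utf1, Tcl1, Fbxo15, Tdh, L1td1 and Lin28a. They were chosen by name and found on the arrays by the RefSeq accession of their probes. All 10 were present, on 14 of 55418 probes, and all 10 entered the test of 21421 genes and unnamed features, with 1 probe (the brightest) standing for each gene. RNA came from embryoid bodies, floating clumps of mouse embryonic stem cells that differentiate into many cell types, grown without the self-renewal factor LIF for 10 days (2 days in hanging drops and 8 days in suspension) on a mixed 129/C57BL6 background. The groups were wild type (WT, 1 line, 2 arrays), the Tet1/2/3 triple-knockout line TKO#26 (written TKO_26, 2 arrays) and the triple-knockout line TKO#29 (TKO_29, 2 arrays), which lack the TET enzymes that oxidise 5-methylcytosine in DNA. The series calls the arrays of a line technical replicas, without saying whether they share RNA, so the design has 1 WT line and 2 TKO lines, and p-values over arrays compare lines, not genotypes. Each line may carry features of its own, and both TKO lines are compared with the same WT arrays. On the slide, 1 column held the WT arrays and another the TKO arrays, and position and genotype cannot be told apart.

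These genes are active in cells of the early embryo and in cultured stem cells and are switched off as cells differentiate. They act beside the core transcription factors OCT4, SOX2 and NANOG rather than as parts of that core. DPPA2 and DPPA4 bind DNA and chromatin as a pair and keep developmental promoters accessible, DPPA3 (Stella) guards DNA methylation in the early embryo, and LIN28A blocks maturation of the let-7 microRNAs.

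Normalised signals are log2 processed signals minus the array's 75th percentile over probes measured on all arrays, so 0 is the level of that percentile. A gene passed in a line where it differed from WT by at least 2-fold with an adjusted p from limma under 0.05 (Benjamini-Hochberg over all features tested), and "rose" or "fell" means that it passed with the same sign in TKO_26 and in TKO_29. Of the 10 genes, 4 rose and none fell: Dppa3, Tcl1, Fbxo15 and Dppa4. Over all features tested, 867 (4.05%) rose and 1412 (6.59%) fell, or 309 and 891 with normexp background correction. The same 4, all higher, were the genes that passed in each line taken alone. In TKO_26 13.4% of all features passed (5.6% higher, 7.79% lower), in TKO_29 19.4% (8.16% higher, 11.2% lower), and in both with the same sign 10.6%. The median difference of the 10 from WT was 1.06 in TKO_26 and 0.30 in TKO_29 on the log2 scale, against 0.02 and -0.09 over all features. Those medians include 5 genes with saturated spots, whose differences are cut short as described below. Each of the 4 that rose was measured without saturation and above background on all 6 arrays. None (0) of the 10 passed on line averages, the test that counts a line as 1 replicate, in which 0.906% of all features passed (0.154% higher, 0.752% lower). On that test 3849 of all features had an unadjusted p under 0.05, and Dppa3, Tcl1, Fbxo15 and Dppa4 had unadjusted p of 0.00281, 0.00599, 0.00899 and 0.0127 (limma). In these bulk samples more cells that express a gene and more RNA per cell cannot be told apart.

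**Figure D1:**
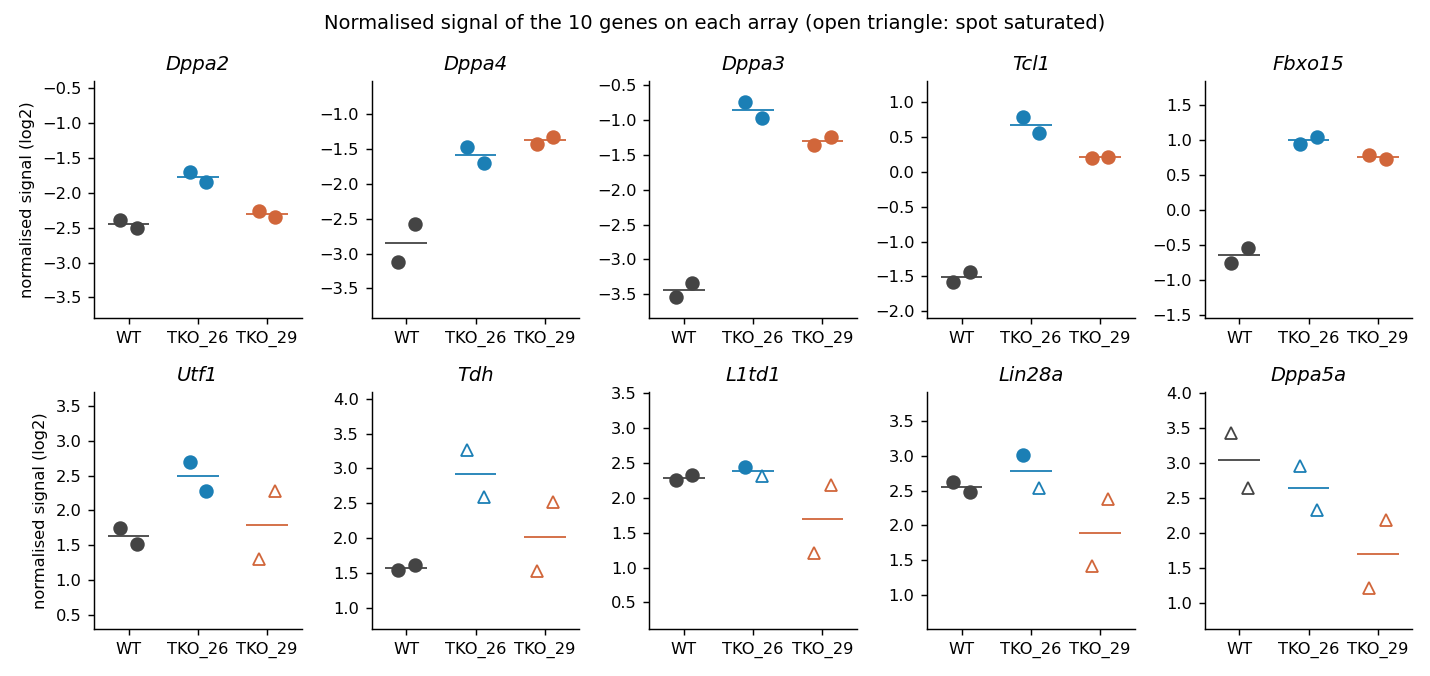
Normalised signal (log2, vertical axis) of the brightest probe of each of the 10 genes on the 2 arrays of WT, TKO_26 and TKO_29, with the mean of each line as a bar. Each panel has its own range. Open triangles are saturated spots, whose true level lies at or above the point. For Dppa3, Tcl1, Fbxo15 and Dppa4 all 4 TKO points lie above both WT points, and Dppa5a is saturated on all 6 arrays.

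Several markers of differentiated cells were lower in the same TKO arrays. All 3 markers of each of blood, heart and visceral endoderm fell (2 for blood and 1 for visceral endoderm without WT replicate 1, 2 for visceral endoderm without WT replicate 2). Their summed signal (linear, 1 being the array's 75th percentile) dropped from 7.02 to 7.41 in WT to at most 0.0385 in TKO for blood, from 5.77 to 6.05 to at most 0.0996 for heart, and from 0.958 to 0.976 to at most 0.0272 for visceral endoderm. Hbb-bh1, Hba-x, Afp and Apob had signals near background in TKO, on 0 of the 4 arrays well above it. The blood count was also 2 with normexp, with the deposited matrix values and with no filter on dim probes. When signal was demanded on all 6 arrays, only 1 blood, 2 heart and 1 visceral endoderm markers were tested, and these fell. Of 6 trophoblast markers 3 fell (2 with normexp), and of 6 fibroblast or feeder markers 3 fell. The trophoblast markers that fell were Prl3d1, Elf5 and Cdx2, none of them well above background on both TKO_26 arrays. Elf5 was near background on all TKO arrays and entered the test only through WT. With signal demanded on all 6 arrays, only 3 trophoblast markers were tested, and 0 fell. Summed signals of the 6 trophoblast markers were 1.85 to 1.88 in WT, 1.78 to 1.83 in TKO_26 and 1.35 to 1.47 in TKO_29. For the 6 fibroblast markers they were 4.25 to 5.05, 2.58 to 2.89 and 2.70 to 2.96. Neural markers were mixed: Tubb3 fell (a call lost without any 1 array other than WT replicate 2), while Pax6 and Sox1 passed as higher in TKO_29 and not in TKO_26, and of 3 endothelial markers only Cdh5 fell. The part of these cell types in the rise of the stem cell genes was not tested. As a check of the labels, Tet1 was 2.03-fold and 3.22-fold lower and Tet2 2.13-fold and 3.74-fold lower on their brightest probes, and a second Tet2 probe was lower too (2.38-fold and 2.83-fold), while a second Tet1 probe did not pass, at -0.08 and 0.23. The Tet3 probes went different ways: the brightest was 2.07-fold higher in TKO_26 and 1.53-fold lower in TKO_29 without passing (limma adjusted p = 0.100 and 0.222), a dimmer one was lower in both lines with adjusted p of 0.0280 and 0.0106, and the third passed as lower in TKO_29 only (0.0804 and 0.0151). Where the probes lie relative to the deletions was not analysed here.

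Dppa3 had the largest measured difference. It encodes a maternal and germ-cell protein that binds UHRF1 and keeps it from maintaining DNA methylation. Its normalised signals were -3.54 and -3.34 in WT, -0.74 and -0.98 in TKO_26 and -1.36 and -1.25 in TKO_29. All TKO arrays lay far above both WT arrays, and the TKO_26 arrays lay above those of TKO_29. The log2 difference from WT was 2.59 ± 0.15 (SE) in TKO_26, 6.0-fold, and 2.14 ± 0.15 in TKO_29, 4.41-fold (limma adjusted p = 0.00116 and 0.00155). On line averages the adjusted p was 0.0871. UHRF1 and DNMT1, through which DPPA3 acts on methylation, were measured by Uhrf1 and Dnmt1, and neither passed in either line. The mean differences were -0.05 for Uhrf1, saturated on 1 TKO_29 array, and 0.02 for Dnmt1.

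Dppa2 and Dppa4 are neighbouring genes whose proteins both carry a SAP domain, a DNA-binding fold, and work as a complex, and both were measured here. Dppa4 lay at -3.12 and -2.57 in WT, -1.46 and -1.70 in TKO_26 and -1.42 and -1.33 in TKO_29. The TKO arrays again stood clear of WT, while the WT arrays lay further apart from each other than those of either TKO line. Dppa4 was 2.40-fold higher in TKO_26 (log2 difference 1.27 ± 0.22, SE) and 2.77-fold higher in TKO_29 (1.47 ± 0.22), with limma adjusted p of 0.0189 and 0.00945, and 0.153 on line averages. Dppa4 no longer passed in both lines when a single array was left out in 4 of 6 cases: WT replicate 1 (mean difference 1.09), TKO_26 replicate 1 (1.31), TKO_29 replicate 1 (1.39) and TKO_29 replicate 2 (1.35). The number of genes that rose is then 3 of 10.

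The brightest probe of Dppa2 lay at -2.40 and -2.50 in WT, -1.70 and -1.85 in TKO_26 and -2.27 and -2.35 in TKO_29. These levels did not overlap between WT and TKO, but the TKO_29 arrays sat just above the WT arrays. The difference was 0.67 ± 0.13 (SE) in TKO_26, 1.59-fold with a limma adjusted p of 0.0228, which is under the 2-fold threshold. In TKO_29 it was 0.14 ± 0.13, with a 95% interval of -0.19 to 0.47 and an adjusted p of 0.419. Between the TKO lines Dppa2 differed by -0.53 (TKO_29 minus TKO_26, 95% interval -0.86 to -0.21), which did not pass (limma adjusted p = 0.116).

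Both genes have further probes, and these did not all give the same size. The dim Dppa2 probe was well above background on 0 WT arrays, 1 TKO_26 array and both TKO_29 arrays, and was at least 1.47-fold and 1.11-fold higher in TKO_26 and TKO_29. It passed in TKO_26 and not in TKO_29 when probes were tested singly (limma adjusted p = 0.0333 and 0.0549). The probe entered that fit only through its TKO_29 arrays. The pass rests on signals not well above background, and neither bound reaches 2-fold. For such bounds a dim probe is given at least the smallest signal that counts as measured on its array. A second Dppa4 probe was 2.83-fold higher in TKO_26 and 2.82-fold higher in TKO_29 and passed in both lines when probes were tested singly (limma adjusted p = 0.0315 and 0.0219). The dimmest Dppa4 probe, with normalised signals of -6.11 and -6.67 in WT, -5.68 and -5.74 in TKO_26 and -6.07 and -6.15 in TKO_29, gave 0.68 ± 0.21 and 0.28 ± 0.21 and did not pass (adjusted p = 0.0867 and 0.340). On that probe WT replicate 1 overlapped the TKO_29 arrays.

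**Figure D2:**
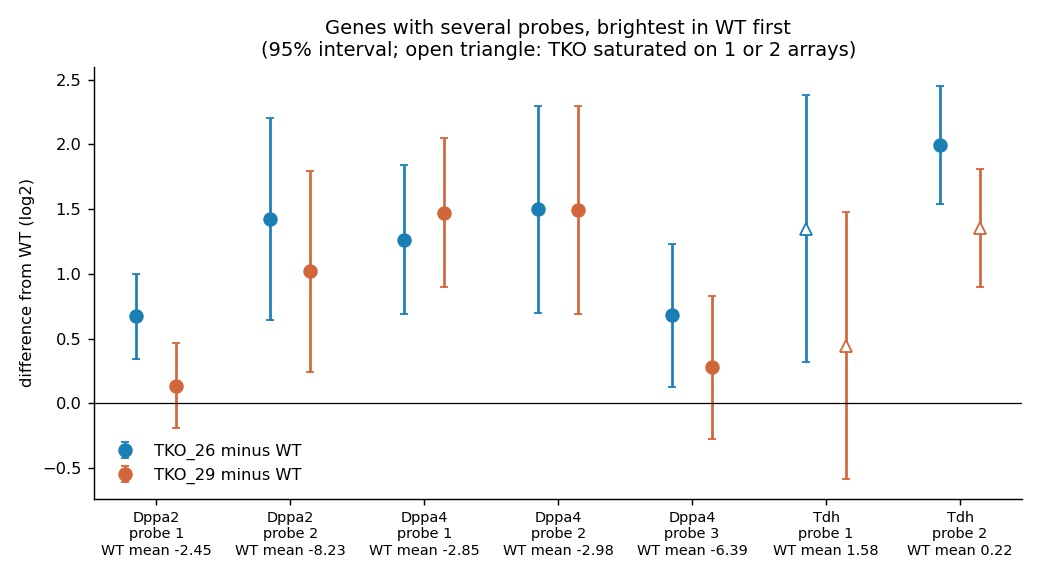
Difference of each TKO line from WT (log2, with 95% interval from limma) on every probe of Dppa2, Dppa4 and Tdh, the genes with more than 1 probe, ordered by their WT mean. Open triangles mark TKO lines with saturated spots, whose difference is cut short. The dim Dppa2 probe was well above background on 0 WT arrays. Its points (1.43 and 1.02) are fitted differences, and only its bounds of 1.47-fold and 1.11-fold can be read. The dimmest Dppa4 probe (0.68 and 0.28) lies below the other probes of the gene, and the unsaturated Tdh value of 1.99 in TKO_26 lies above the saturated one of 1.35.

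Genes that the DPPA2 and DPPA4 pair is known to switch on in stem cells, mostly genes of the 2-cell embryo, were read from a list of 9, of which 6 were tested. In the fit 3 of these, Zscan4c, Zscan4f and Tcstv3, passed as higher in both lines and none as lower. All 3 entered the test only through their TKO arrays, a filter that favours a higher call, so their passing adds no support of its own. They lacked a WT level on at least 1 array and so give bounds. Those of Zscan4c in TKO_29 and Tcstv3 in TKO_26 do not reach 2-fold. The median mean difference of the 6 was 1.14 with these genes at their bounds (1.36 as fitted, 0.70 with normexp) and 0.27 over the 3 genes with signal on all 6 arrays, against -0.04 over all features. Zscan4c, a telomere factor gene of the 2-cell stage, was near background in WT (0 arrays well above it) and was at least 3.21-fold higher in TKO_26 and at least 1.90-fold higher in TKO_29. Its close copy Zscan4f, whose probe may not tell the copies apart, was at least 3.92-fold and 2.24-fold higher, with 1 WT array measured, and Tcstv3, with 0 WT arrays measured, at least 1.83-fold and 2.75-fold. Mael, a piRNA pathway gene, was 2.43-fold higher in TKO_26 and 1.91-fold higher in TKO_29, where it missed the 2-fold threshold. Zfp352 and Syce1 had mean differences of 0.27 and 0.21. None (0) of the 6 passed with normexp or with the deposited matrix values. When signal was demanded on all 6 arrays, Zscan4c, Zscan4f and Tcstv3 were not tested, and 0 of the other 3 passed. The count was 2 without WT replicate 1 and without TKO_29 replicate 2.

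Tcl1 encodes a co-activator of AKT kinases that supports stem cell proliferation. It lay at -1.58 and -1.44 in WT, 0.78 and 0.56 in TKO_26 and 0.20 and 0.21 in TKO_29. The arrays of each line were close together, WT lowest and TKO_26 highest. It rose 4.54-fold in TKO_26 (log2 difference 2.18 ± 0.14, SE, limma adjusted p = 0.00139) and 3.29-fold in TKO_29 (1.72 ± 0.14, 0.00207), with 0.111 on line averages. Of its tested relatives in the Tcl1b cluster only Tcl1b4 rose. It was not well above background in WT and was at least 3.50-fold and 2.79-fold higher in the TKO lines. With normexp the call was lost. Tcl1b4 entered the test only through its TKO arrays and was not tested when signal was demanded on all 6 arrays. Tcl1b2 and Tcl1b5 passed in neither line. Tcl1b1, above background on 1 TKO_26 array, both TKO_29 arrays and no WT array, was at least 1.25-fold higher in TKO_26 and 1.25-fold higher in TKO_29 without passing. Akt1 and Akt2, genes of kinases that TCL1 binds, did not reach 2-fold in either line, with mean differences of -0.81 and -0.36.

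Since TET enzymes act on methylated CpG sites, the CpG content of the promoters was read from the RefSeq promoter table (GRCm38.p6, 250 bases before to 50 after the start). It held entries for 4 of the genes. Tcl1, which rose, had 11 CG pairs in these 300 bases, Lin28a 10, L1td1 14 and Utf1 17, against a median of 7 over 32851 promoters. Between 56.5% (Lin28a) and 68.6% (Utf1) of all promoters held fewer. None of the 4 held, on either strand, the octamer ATGCAAAT bound by OCT4 (in 1.74% of all promoters), the ESRRB motif TCAAGGTCA (0.423%) or the SOX motif CTTTGT (18.7%). The windows of Tcl1, the gene among these 4 that rose, and of Utf1, the one richest in CG, are printed 5′ to 3′ on the gene's strand with each CG in capitals; methylation was not measured here. They lie at chr12:105222688-105222987 (minus strand) and chr7:139943606-139943905 (plus strand).
Tcl1: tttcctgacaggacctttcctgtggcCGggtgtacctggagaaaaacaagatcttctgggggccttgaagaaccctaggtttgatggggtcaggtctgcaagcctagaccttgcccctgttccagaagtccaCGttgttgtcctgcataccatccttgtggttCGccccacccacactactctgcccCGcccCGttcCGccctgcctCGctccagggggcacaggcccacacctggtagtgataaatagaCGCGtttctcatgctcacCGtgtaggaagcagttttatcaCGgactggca
Utf1: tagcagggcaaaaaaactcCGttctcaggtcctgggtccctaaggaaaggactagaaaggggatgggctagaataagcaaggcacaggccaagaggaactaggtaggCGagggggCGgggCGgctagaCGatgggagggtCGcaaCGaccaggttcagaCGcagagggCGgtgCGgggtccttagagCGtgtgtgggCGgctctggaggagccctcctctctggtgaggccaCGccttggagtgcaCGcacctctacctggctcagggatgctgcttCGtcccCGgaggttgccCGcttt
Both windows have 1 CG near the upstream end (base 27 in Tcl1, base 20 in Utf1) and then a stretch without CG. The other 10 and 16 lie from base 133 and base 108 on. In the windows not printed, the first and second CG lie at bases 29 and 47 (L1td1) and 80 and 140 (Lin28a). The share of all promoters with the layout of Tcl1 and Utf1 was not computed.

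Fbxo15 encodes an F-box protein, the part of an SCF ubiquitin ligase that picks its substrates, and is a classic reporter of the stem cell state although stem cells do not need it. It lay at -0.75 and -0.55 in WT, 0.95 and 1.05 in TKO_26 and 0.79 and 0.74 in TKO_29. All TKO arrays were above WT, and the lines lay close to each other. The difference was 1.65 ± 0.13 (SE) in TKO_26, 3.13-fold, and 1.41 ± 0.13 in TKO_29, 2.66-fold (limma adjusted p = 0.00242 and 0.00296; 0.131 on line averages). Of the core subunits of the ligase, Cul1 had a difference of 0.51 in TKO_26 and 1.83 in TKO_29, where it passed (adjusted p = 0.00398). Rbx1 was saturated on all 6 arrays and Skp1 on 3, and neither passed.

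**Figure D3:**
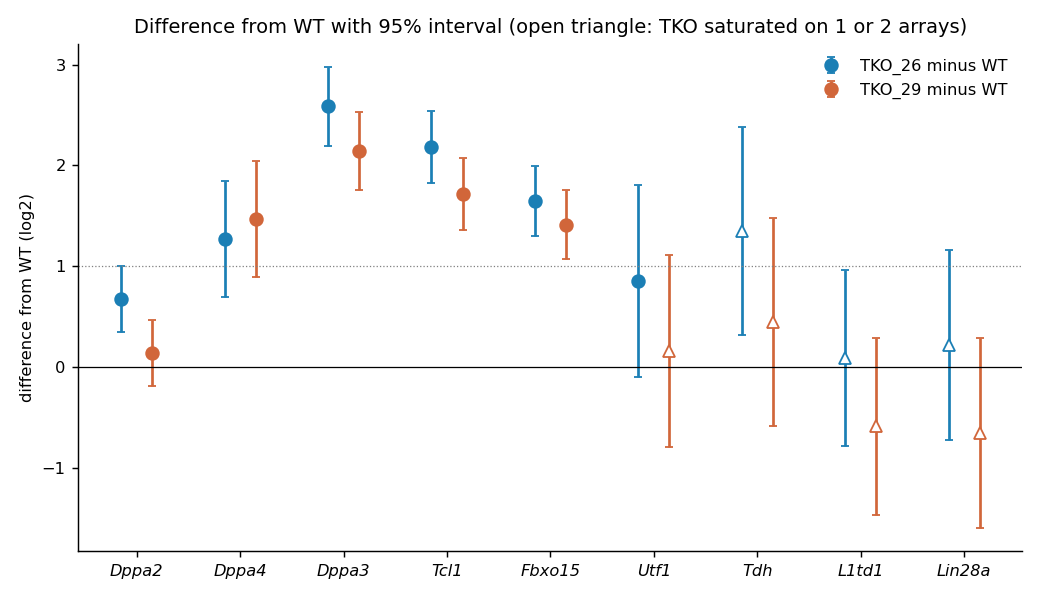
Difference of TKO_26 and of TKO_29 from WT (log2, with 95% interval from limma over 6 arrays) for the brightest probe of 9 of the genes; the dotted line is 2-fold. Open triangles mark TKO lines with 1 or 2 saturated arrays, whose difference is cut short. Dppa3, Tcl1, Fbxo15 and Dppa4 lie above 1 in both lines, while Dppa2 lies at 0.67 and 0.14. Dppa5a is left out because all of its spots were saturated.

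The other 5 genes were so bright that the scanner's limit set part of their values. A spot at that limit is flagged as saturated, and its true level lies at or above the value recorded. Because each array is scaled by its own brightness, the limit sits at a different normalised level on each. For WT the median of saturated spots was 3.64 and 2.87, for TKO_26 3.24 and 2.52, and for TKO_29 1.42 and 2.41. TKO_29 replicate 1 was the brightest array, with 2384 saturated probes against 788 to 1448 on the others, and its limit lay below the levels that Lin28a, L1td1, Tdh and Utf1 reached in WT. A saturated value in TKO_29 that falls below WT therefore gives no direction.

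**Figure D4:**
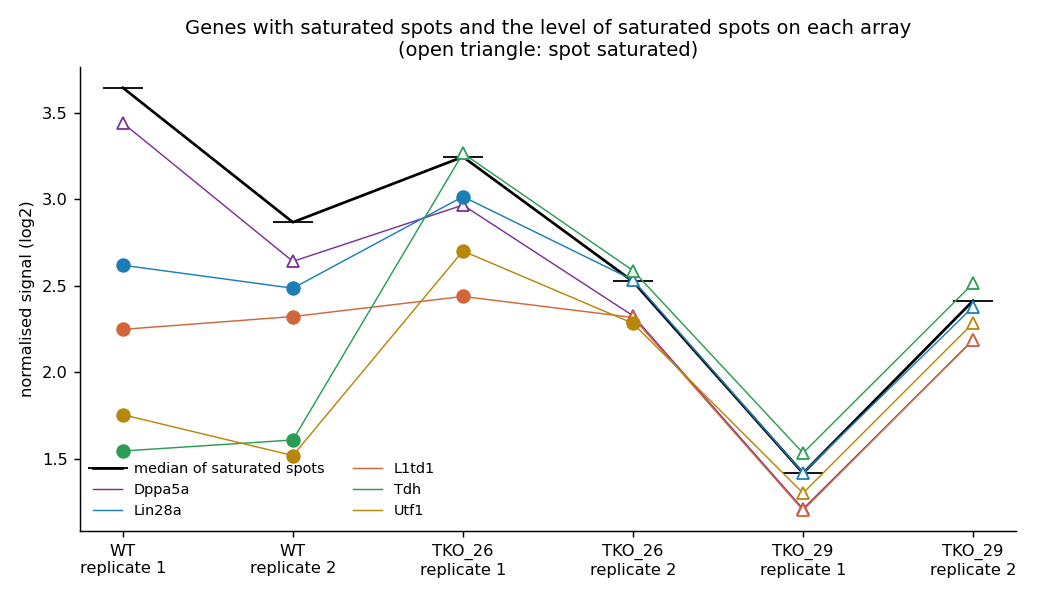
Normalised signal (log2, vertical axis) of Dppa5a, Lin28a, L1td1, Tdh and Utf1 on the 6 arrays (horizontal axis), beside the median of all saturated spots on each array (black line). Open triangles are saturated spots. On TKO_29 replicate 1, where the black line is at 1.42, all 5 genes are saturated and follow it, so a low point there is no measured decrease.

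Tdh was the clearest of these. It encodes threonine dehydrogenase, a mitochondrial enzyme that feeds one-carbon metabolism in mouse stem cells. On its brighter probe the unscaled processed signals were 15331 and 27078 in WT, 62843 and 67776 in TKO_26 and 69877 and 69490 in TKO_29. It was saturated on all 4 TKO arrays and on no WT array. The fold is thus a bound, at least 2.55-fold in TKO_26 and at least 1.36-fold in TKO_29, and the fit gave no call (limma adjusted p = 0.0713 and 0.407). The TKO_29 bound rests on replicate 2, since replicate 1 was saturated at a normalised signal of 1.53, just below both WT arrays. The dimmer Tdh probe was saturated on TKO_29 replicate 1 only and had normalised signals of 0.15 and 0.30 in WT, 2.25 and 2.19 in TKO_26 and 1.38 and 1.77 in TKO_29. All TKO arrays lay above WT. On this probe Tdh was 3.98-fold higher in TKO_26 (1.99 ± 0.18, SE) and at least 2.55-fold higher in TKO_29, and it passed in both lines when probes were tested singly (limma adjusted p = 0.00353 and 0.00694). With that probe in place of the brighter one the genes that rose would include Tdh.

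Of 12 genes of glycine and one-carbon metabolism, none passed in both lines (0 higher, 0 lower, median mean difference 0.12). Gcat, whose product takes the next step of threonine breakdown, differed by 0.28 and 0.25, and Gldc, the glycine decarboxylase, by -0.86 and -0.29. The gene with the largest mean difference was Mthfd1, a folate enzyme, at 1.11; it passed in TKO_29, where 1 array was saturated, and not in TKO_26 (adjusted p = 0.0518). Mthfd1 rose in both lines in 6 of 15 alternatives: the percentile over all probes, the deposited matrix values, signal on all 6 arrays, a variance trend, without TKO_29 replicate 1 and without saturated spots.

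Utf1, a chromatin-bound factor of stem cells, had normalised signals of 1.75 and 1.52 in WT, 2.70 and 2.28 in TKO_26 and 1.30 and 2.28 in TKO_29. The TKO_26 arrays were unsaturated and above both WT arrays, and both TKO_29 arrays were saturated. Utf1 was 1.81-fold higher in TKO_26 without passing (0.86 ± 0.37, SE; 95% interval -0.10 to 1.81; limma adjusted p = 0.164). In TKO_29 the mean of its arrays was at least 1.11-fold higher, a bound that does not say how far. That bound rests on replicate 2, since replicate 1 was saturated at 1.30, below both WT arrays. The fitted difference was 0.16 ± 0.37 (SE; 95% interval -0.79 to 1.11; limma adjusted p = 0.758).

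Lin28a, the inhibitor of let-7 maturation, was bright in every line. Its unscaled processed signals were 32272 and 49738 in WT, 52827 and 65284 in TKO_26 and 64534 and 63260 in TKO_29. It was saturated on TKO_26 replicate 2 and on both TKO_29 arrays. The unsaturated TKO_26 array lay at a normalised signal of 3.01, against 2.62 and 2.49 in WT. The fold in TKO_26 was at least 1.17, and TKO_29 gives no direction. Its unsaturated relative Lin28b was 1.39-fold higher in TKO_26 and 1.27-fold higher in TKO_29, under the 2-fold threshold (limma adjusted p = 0.0444 and 0.0730). Of 10 genes of the LIN28 and let-7 pathway, none rose and 1 fell. That gene was Hmga2, a chromatin protein gene repressed by let-7, which fell 2.36-fold in TKO_26 and 2.34-fold in TKO_29 (limma adjusted p = 0.00404 and 0.00338). Trim71, another let-7 target and stem cell RNA-binding protein, passed in TKO_29 at 1.34 with 1 saturated array and not in TKO_26 at 0.71.

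L1td1 encodes an RNA-binding protein derived from a LINE-1 element and binds LIN28A. Its normalised signals were 2.25 and 2.32 in WT, 2.44 and 2.32 in TKO_26 and 1.20 and 2.19 in TKO_29. The unsaturated TKO_26 array lay just above the WT arrays, and the other 3 TKO arrays were saturated. L1td1 was at least 1.07-fold higher in TKO_26 (limma adjusted p = 0.867), and TKO_29 gives no direction. Dppa5a, an RNA-binding KH-domain protein gene, was saturated everywhere, with unscaled processed signals of 57055 and 55378 in WT, 51072 and 56560 in TKO_26 and 55861 and 55389 in TKO_29. No difference between lines can be read; its signal was at the scanner's limit in day-10 embryoid bodies of all 3 lines.

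None (0) of the 10 genes passed between the TKO lines, as was so for all 21421 features in limma. Among the unsaturated genes, the TKO_29 minus TKO_26 difference was -0.44 for Dppa3 (95% interval -0.83 to -0.05), -0.47 for Tcl1 (-0.82 to -0.11), -0.24 for Fbxo15 (-0.58 to 0.11) and 0.21 for Dppa4 (-0.37 to 0.78). The intervals of Dppa3, Tcl1 and Dppa2 lie below 0, with limma adjusted p of 0.186, 0.154 and 0.116.

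The core pluripotency factors were read beside these genes. Of 15, 5 rose and none fell, with a median mean difference of 0.76. Nanog rose 4.89-fold and 3.38-fold, Prdm14 3.88-fold and 3.00-fold, Sox2 2.06-fold and 2.64-fold and Klf2 2.20-fold and 2.22-fold in TKO_26 and TKO_29. The count was 3 without TKO_29 replicate 1, 2 without TKO_29 replicate 2 and 3 with no filter on dim probes. Pou5f1, the gene of OCT4, passed in neither line, at 0.22 and 0.60 (limma adjusted p = 0.338 and 0.0324). Zfp42 (Rex1), a widely used marker of the same state, lay below WT, at -0.98 and -0.93, and did not pass. Tbx3 and Nr0b1 also had mean differences below 0, of -0.58 and -0.17. Of 6 genes of the primed epiblast 0 passed (median 0.23). Dnmt3b was saturated on 5 arrays, and the largest difference was that of Dnmt3a, which did not reach 2-fold, at -0.89. Of 8 markers of primordial germ cells, which also express Dppa3, 2 rose: Ddx4 3.81-fold and 3.29-fold, and Dazl, not well above background in WT, at least 3.26-fold and 3.08-fold. Dazl entered the test only through its TKO_29 arrays, a filter that favours a higher call. The count was 1 without TKO_29 replicate 1 and with normexp. It was also 1 when signal was demanded on all 6 arrays, where Dazl was not tested. The summed signal of the 8 was 2.31 to 2.74 in WT, 2.67 to 2.74 in TKO_26 and 2.16 in both TKO_29 arrays, so WT and TKO_26 overlapped and TKO_29 lay below both. The part of germ cells in the Dppa3 signal was not tested.

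**Figure D5:**
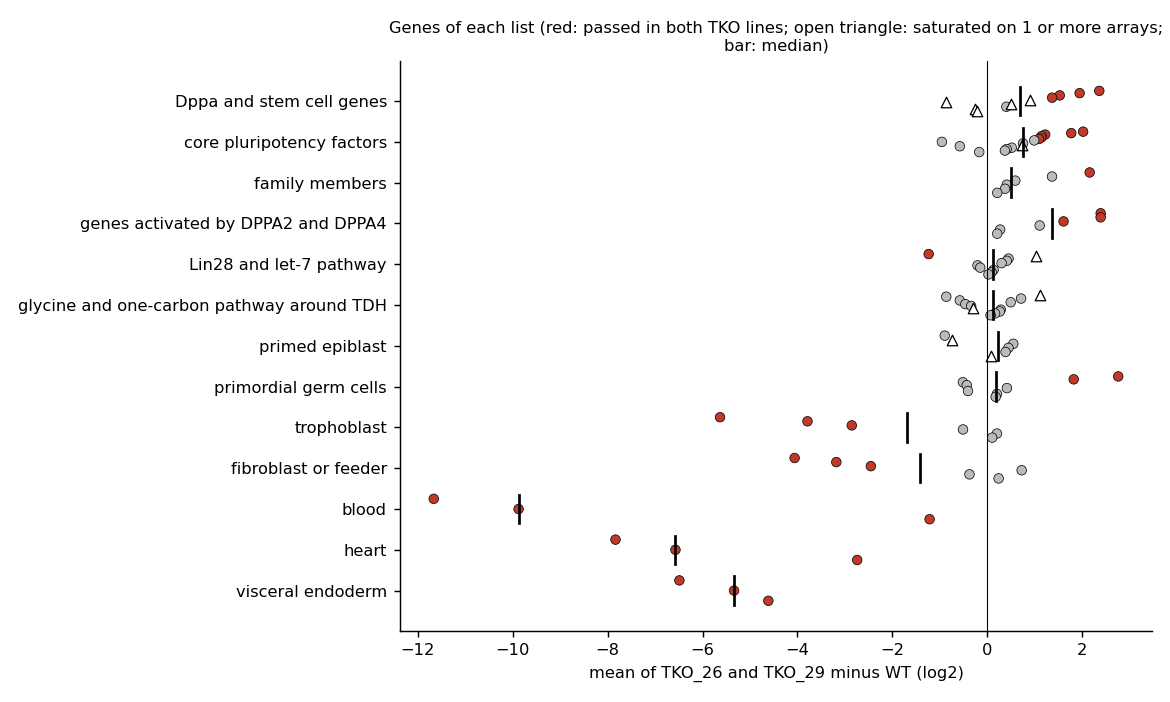
Mean difference of the TKO lines from WT (log2, horizontal axis) for the 10 stem cell genes, related pathway lists and cell type markers (vertical axis); each point is a gene and the bar is the list's median. Red points passed in both TKO lines. Open triangles were saturated on at least 1 array, where the scanner's limit set part of the difference. Among the 10 genes those below 0 (Dppa5a, L1td1 and Lin28a) are no measured decrease. The median of the 10 includes 5 genes with saturated spots. The stem cell and pluripotency lists lie mostly above 0 (medians 0.70 and 0.76), while blood, heart and visceral endoderm lie far below it (medians of -8.33, -6.57 and -4.89 with genes not well above background in TKO at their bounds). The points and bars are fitted differences, so the bars of blood and visceral endoderm lie lower, at -9.88 and -5.33. For genes at background in a line the fitted size cannot be read.

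Other genes shared the patterns across the 6 arrays. By the root mean square distance of log2 signals centred on each gene's own mean, Plac9a (0.13) and Calcoco2 (0.15) were nearest to Dppa3, Tspan1 (0.09) and Ly6g6e (0.10) to Tcl1, Dhdh (0.06) and Jam2 (0.07) to Fbxo15, and Nthl1 (0.07) and the pseudogene Smarca5-ps (0.07) to Dppa4, among 11236 named genes above background on all arrays. Upk1a (0.03) and Utrn (0.04) were nearest to Dppa2, and Ybx3 (0.05) and Pmm1 (0.07) to Utf1. Prmt7 (0.15) and Igfbp2 (0.21) were nearest to Tdh. The neighbours of Utf1 and Tdh had saturated spots as well: Ybx3 on 2 arrays, Pmm1 on 3, Prmt7 on 3 and Igfbp2 on 2. The genes nearest to Dppa5a, Ppp1ca and Rps3a1 (0.0036 and 0.0044), were saturated on all 6 arrays too, and those nearest to L1td1 (Qars and Eif5a) and Lin28a (Ube2s and Hdac1) were saturated on 3. For Dppa5a, L1td1 and Lin28a the likeness is one of saturated spots, and for Utf1 and Tdh saturated spots set part of it.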

How the data were processed

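RNA from the embryoid bodies was measured on Agilent mouse arrays with 1 dye (Cy3), per the labels' protocols. Spot intensity was taken from the scanner output of Agilent Feature Extraction 10.5.1.1 (a processed signal with background and spatial trend removed, and flags), per the file headers. A table of log2 values was deposited by the authors too. Its processing steps were not given in the sources used here. Each column followed its own array's log2 median signal (Pearson r at least 0.995 across probes; column medians 6.86 to 6.89, not centred), so its scale and direction were read from that match.

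Control spots and outlier spots were left out (263 probes lost), saturated spots were kept and repeated spots averaged. Probes were named by unversioned accession through a RefSeq gene table (GRCm38.p6); 27359 of 55418 probes had a symbol. Well above background were 38.4% to 55.8% of an array's spots, so the 75th percentile used to scale log2 signals was that of the 19178 probes measured on all 6. A probe was tested if both arrays of any line had it well above background, and the brightest stood for its gene. limma 3.58.1 in R 4.3.3 was fitted to 6 arrays in 3 groups (3 residual degrees of freedom) and to line averages (1 residual degree of freedom, with the lone WT line given the spread of the TKO lines). Arrays limit the precision: arrays of 1 line differed with an SD over probes of 0.32 (WT), 0.39 (TKO_26) and 0.24 (TKO_29). The fit was tested on simulated data. A planned normexp correction used the median spot signal, since the files used here hold no mean spot signal. Python 3.11.15 with pandas 2.3.3 and matplotlib 3.10.9 drew the figures. All 10 genes are named on every probe. Neighbours are the nearest named genes (excluding clone and predicted names). Genes of the pathway lists are named if they rose or fell (up to 4 a list by size) or had the largest difference. Of the cell type markers that fell, not all are named. Others named were chosen after their values were seen. A result for 1 of the lists is not reported here. The genes and lists were chosen with earlier results of these data known.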

Additional observations from a re-analysis of the deposited data

How the results depend on the processing

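Of 16 alternatives (15 planned; leaving out saturated spots was added after seeing the data), Dppa3, Tcl1 and Fbxo15 rose in all 16, with mean differences of 2.05 to 2.46, 1.88 to 2.03 and 1.43 to 1.63. Dppa4 rose in 10 of 16 and was above WT in all (0.48 to 1.64); besides the arrays named above, its call was lost with no filter on dim probes (1.37; more features tested) and on its dimmest probe (0.48). Tdh passed with quantile normalisation (1.18), with the deposited matrix values (1.09) and on its dimmer probe (1.67). Saturated genes changed sign: Lin28a from -0.22 to 0.26 with quantile normalisation, 0.27 with the matrix values and 0.024 without TKO_29 replicate 1 (-0.46 to 0.024 over all arrays left out), and L1td1 from -0.25 to 0.24 with the matrix values. On line averages 0 genes passed in the main analysis, 2 with normexp, 5 with the matrix values and 4 with a variance trend; the cause was not tested. Leaving out 1 array gave 3 to 4 genes in either line or both, and 0 on line averages and between the TKO lines; without TKO_29 replicate 2, the 4 in TKO_29 included L1td1 as lower, read from a saturated spot. Over all features, genes that rose numbered 867, from 309 (normexp) to 1059 (percentile over all probes), 387 with no filter, 449 with signal on all 6 arrays, 500 without TKO_29 replicate 1 and 458 without TKO_29 replicate 2; those that fell went from 1412 to 891, 894, 737, 1039 and 965 under normexp, no filter, signal on all 6 arrays and without those arrays. The 194 features called on line averages became 0 with quantile normalisation, no filter or signal on all 6 arrays, 0 to 597 with 1 array left out, 784 with normexp, 1812 with the matrix values, 1520 with a variance trend and 535 without saturated spots. Replicate numbers 1 and 2 recur in each line. Deviations of same-numbered arrays correlated at 0.23 (WT and TKO_26), -0.08 (WT and TKO_29) and -0.28 (TKO_26 and TKO_29) over 13259 genes. Whether same-numbered arrays were handled together was not tested. With the replicate block 4 genes were called in TKO_26, in TKO_29 and in both lines, and 0 between the TKO lines. Dppa5a, saturated on all arrays, was left out of these alternatives, since no difference of it can be read. With saturated spots left out, Utf1, Tdh, L1td1 and Lin28a could not be fitted for lack of an unsaturated TKO_29 array.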
